A study of Homo sapiens with 12 samples.

Results

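The genes described here are 10 matricellular and secreted matrix glycoproteins: the thrombospondins THBS1, THBS2 and THBS3, osteopontin (SPP1), periostin (POSTN), tenascin-C (TNC), SPARC, fibronectin (FN1), reelin (RELN) and TGFBI. They were chosen by gene name from the table of raw counts, and all 10 were found among its 57187 genes. The table holds RNA sequencing of 12 libraries, in which 4 human cancer cell lines were each measured once as a control, once carrying SIVA-WT and once carrying SIVA-D160N. The first pair of lines, MDA-MB-231 and HCC1954, came from breast cancer and the second, OVCAR8 and SKOV3 (OVAR-8 and SKOV-3 in the sample labels), from ovarian cancer. SIVA-WT is unmutated SIVA and SIVA-D160N is the mutant form of the same protein, both delivered by Lipofectamine as a linearized vector and kept under hygromycin. The controls are labelled as parental cells with no treatment, whereas the methods describe them as carrying the empty vector (EV). They are called controls here. All cells were grown in RPMI with serum. The study describes the transfectants as stable, with a CMV promoter, and those of HCC1954, OVCAR8 and SKOV3 as polyclonal. Each transfected library of those lines is therefore 1 pool of cells and not 1 clone. The study does not call the MDA-MB-231 transfectants polyclonal, and made them in cells that express luciferase. Nothing in the labels says that a condition was cultured more than once in a line. The lines therefore stand in for replicates of a condition (n = 4 per condition). For contrasts of condition, p-values measure how the difference between conditions varies from line to line. In comparisons of lines the libraries of a line stand in for its replicates. Those p-values measure only the spread between libraries of single lines, not between independent cultures.

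Total counts ran from 35791455 to 45890398 per library. The SIVA1 gene was higher with either construct than in the control of the same line in 4 of 4 lines, but the HCC1954 control library held 0 SIVA1 counts (upper limit 0.0720 CPM, taking 3 counts as the limit, for counting error only). The other 3 control libraries held 28.1 to 66.3 counts per 1000000 (CPM). For that reason, fitted differences between conditions of these genes that moved by more than 1.5 times when HCC1954 was left out are given also without it. PAX8, a marker of Müllerian epithelium, lay between 61.1 and 243.4 CPM in the ovarian lines and between 1.56 and 3.43 CPM in the breast lines. MUC16, also listed as an ovarian marker, was instead highest in the breast line HCC1954, at 66.1 to 115 CPM, and was at most 1.58 CPM in the ovarian lines. WT1, another listed ovarian marker, measured 5.55 to 8.06 CPM in HCC1954 but 0.397 to 1.11 CPM in SKOV3. Of the listed breast markers, TFAP2C was at least 4.83 CPM in the breast lines and at most 0.968 CPM in the ovarian lines. GATA3 and KRT7 were higher in OVCAR8 (5.68 to 6.28 and 419.1 to 496.4 CPM) than in MDA-MB-231 (1.79 to 2.86 and 125.4 to 153.8 CPM).

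Matricellular proteins are secreted into the extracellular matrix, where they act less as building material than as signals: they bind integrins, CD47, CD44, syndecans and growth factors and change how a cell adheres, spreads and migrates. Fibronectin is a structural matrix protein as well as an integrin ligand, and reelin is a large secreted glycoprotein that signals through the lipoprotein receptors VLDLR and LRP8. In carcinomas many of these proteins come from stromal fibroblasts, but tumour cells can make them too.

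The stretch before the gene start is shown for the 5 genes whose difference between SIVA-D160N and control had the lowest p-values. Each is the 250 bases upstream of the start in RefSeq (GRCh38.p14), read 5′ to 3′ on the gene's strand, in lower case with letter matches to 6 motifs in capitals. All 10 genes were matched in that table.
THBS1, chr15:39580829-39581078, + strand: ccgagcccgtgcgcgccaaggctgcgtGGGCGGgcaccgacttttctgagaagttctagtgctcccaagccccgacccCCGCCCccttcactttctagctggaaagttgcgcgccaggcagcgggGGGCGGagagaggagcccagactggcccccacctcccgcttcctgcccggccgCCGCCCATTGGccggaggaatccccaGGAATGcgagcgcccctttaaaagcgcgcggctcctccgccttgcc
THBS3, chr1:155209179-155209428, - strand: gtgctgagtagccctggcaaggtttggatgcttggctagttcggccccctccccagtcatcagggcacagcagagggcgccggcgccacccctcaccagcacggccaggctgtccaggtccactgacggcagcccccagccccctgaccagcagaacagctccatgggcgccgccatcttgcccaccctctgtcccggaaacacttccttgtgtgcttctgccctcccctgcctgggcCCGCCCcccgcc
SPP1, chr4:87975464-87975713, + strand: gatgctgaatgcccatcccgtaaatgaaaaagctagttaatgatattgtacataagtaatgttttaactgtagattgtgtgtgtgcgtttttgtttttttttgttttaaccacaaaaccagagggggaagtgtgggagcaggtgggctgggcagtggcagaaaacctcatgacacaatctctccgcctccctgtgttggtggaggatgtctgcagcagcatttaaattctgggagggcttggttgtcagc
POSTN, chr13:37598769-37599018, - strand: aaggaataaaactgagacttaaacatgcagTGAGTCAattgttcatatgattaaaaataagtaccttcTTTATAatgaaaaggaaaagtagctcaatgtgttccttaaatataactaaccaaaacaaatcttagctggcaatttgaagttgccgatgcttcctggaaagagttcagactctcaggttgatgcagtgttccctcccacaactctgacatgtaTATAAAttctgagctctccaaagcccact
RELN, chr7:103989659-103989908, - strand: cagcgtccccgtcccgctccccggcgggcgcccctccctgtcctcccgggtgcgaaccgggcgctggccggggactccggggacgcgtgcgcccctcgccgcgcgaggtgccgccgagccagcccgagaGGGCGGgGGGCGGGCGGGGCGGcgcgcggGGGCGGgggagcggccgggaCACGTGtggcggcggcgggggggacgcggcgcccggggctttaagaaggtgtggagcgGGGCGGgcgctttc

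The motifs searched, on both strands and with overlaps allowed, were the TATA box (TATAAA), the GC box (GGGCGG), the CCAAT box (CCAAT), AP-1 (TGANTCA), TEAD (GGAATG) and the E-box (CACGTG). The GC box was present in 6 of the 10 windows (FN1, RELN, TGFBI, THBS1, THBS3 and TNC), against 42.6% of the 35116 RefSeq windows of the same length. The TATA box was present in 2 windows (POSTN and THBS2, 10.7% of all windows), TEAD in 3 (SPARC, THBS1 and THBS2, 11.9%), the CCAAT box in 2 (FN1 and THBS1, 32.0%), AP-1 in 1 (POSTN, 6.57%) and the E-box in 1 (RELN, 6.35%). The 6 windows with a GC box ran from 54.8% GC (TNC) to 83.2% GC (RELN), whereas POSTN had a TATA box starting 29 bases before the gene start in a window of 36.4% GC. SPP1 held none of the 6 sets of letters. The median window held 58.0% GC. These are matches of letters in a short window and were not measured as binding sites.

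**Figure D1:**
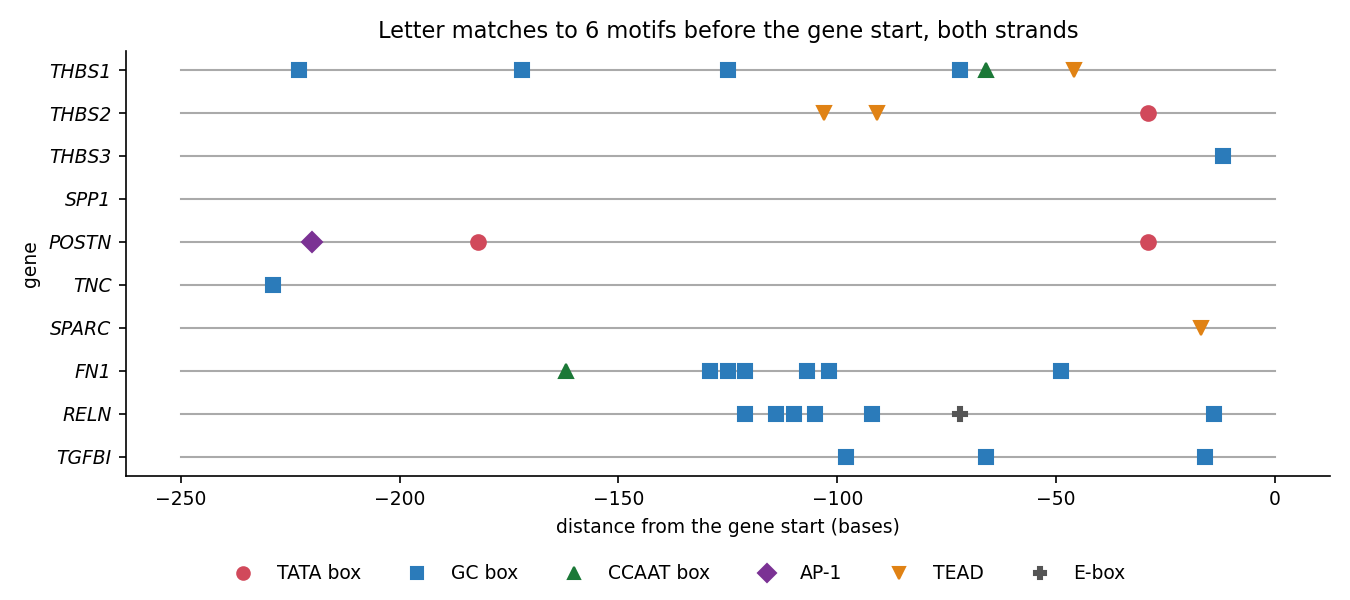
Positions of the motif matches in the 250 bases before each of the 10 gene starts (x axis, distance in bases from the start, y axis, gene), with 1 symbol per motif at the first base of the match. RELN and FN1 each hold 6 GC box matches, THBS1 holds 4, and SPP1 holds no match.

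The levels of most of these genes differed far more between cell lines than between conditions. A level is given as CPM, scaled by TMM normalization, and the 3 libraries of a line are averaged with their SD (n = 3). After log2 transformation, the line accounted for 98.0% of the sum of squares of SPARC over the 12 libraries, 97.7% of POSTN, 97.5% of SPP1, 97.0% of TNC, 91.3% of TGFBI, 87.1% of RELN, 86.2% of THBS1 and 80.5% of THBS3. The median over the 17211 genes tested was 92.2%. FN1 stood apart from the other 8 genes in this share: the line accounted for 7.64% of its sum of squares. The condition accounted for 39.5%, against a median of 1.64% over all genes. The largest part, 52.8%, was taken by neither line nor condition.

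**Figure D2:**
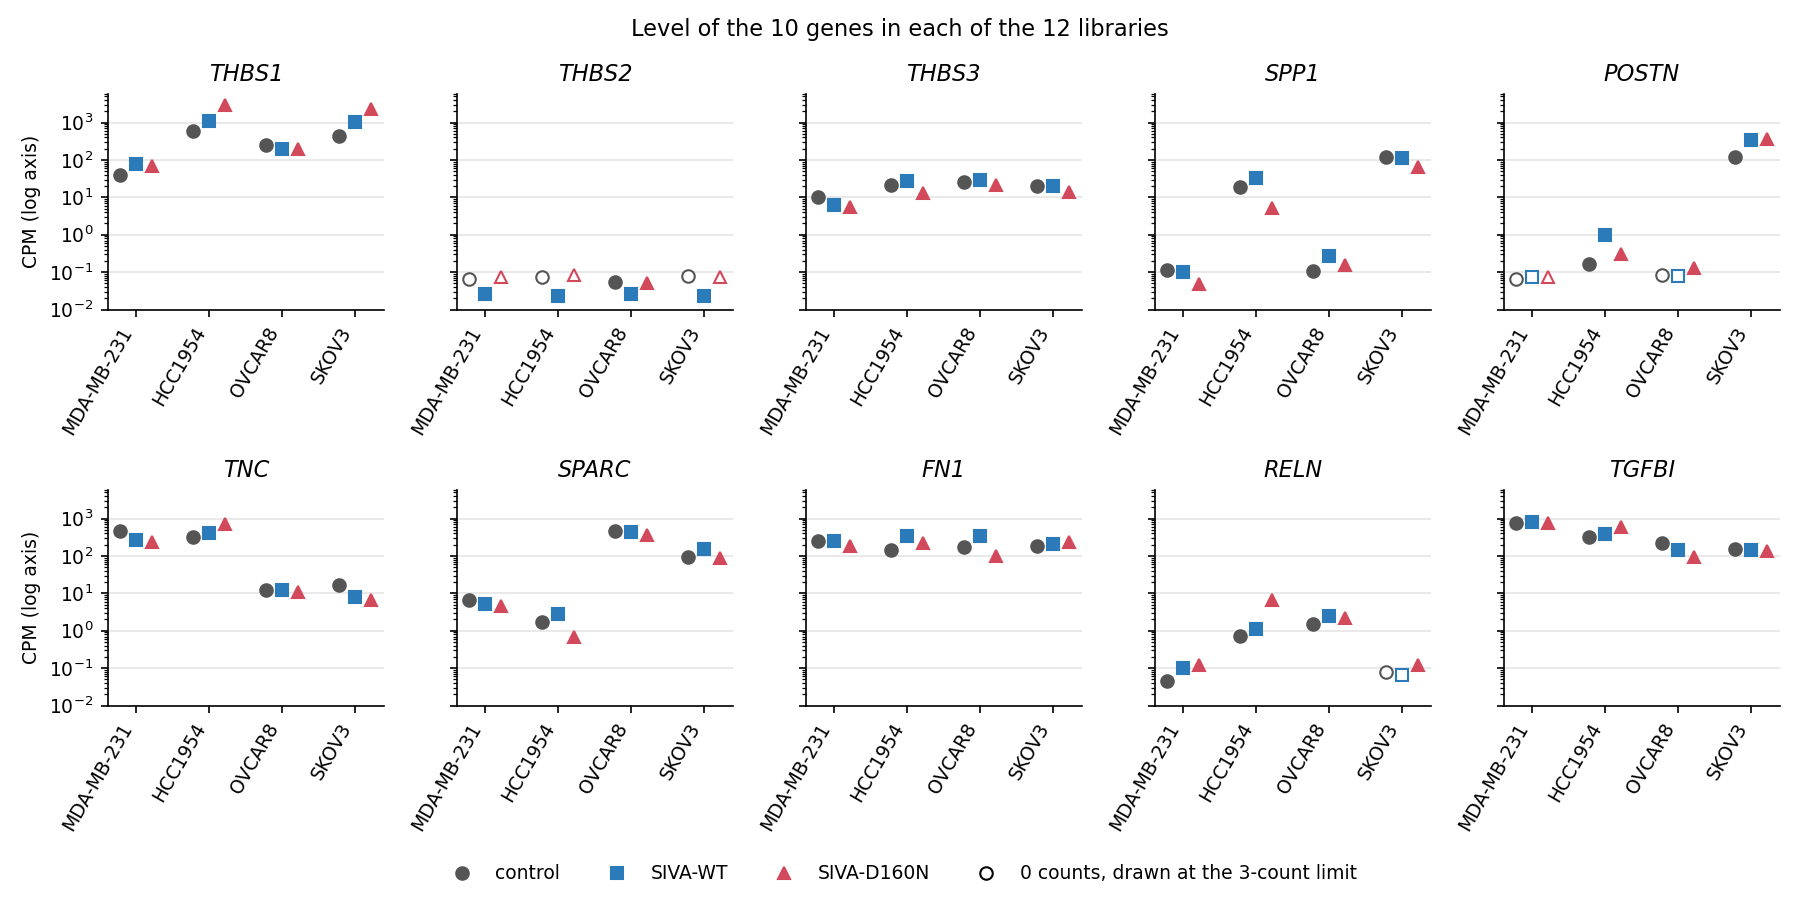
Level of each of the 10 genes (y axis, CPM on a log axis) in the 12 libraries, by cell line (x axis) and condition (circle, control; square, SIVA-WT; triangle, SIVA-D160N). Each symbol is 1 library, and open symbols are libraries with 0 counts drawn at the limit of 3 counts. POSTN was above 100 CPM in SKOV3 and at most 0.999 CPM in the other lines, while FN1 lay between 100.1 and 343.6 CPM in all 12 libraries.

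Between lines, the edgeR quasi-likelihood test with a term for condition called 5 of the 9 testable genes in HCC1954 vs MDA-MB-231 (33.0% of the 19204 genes tested were called), 6 in OVCAR8 vs MDA-MB-231 (26.3%), 6 in SKOV3 vs MDA-MB-231 (29.6%), 6 in OVCAR8 vs HCC1954 (34.3%), 6 in SKOV3 vs HCC1954 (32.8%) and 5 in SKOV3 vs OVCAR8 (31.1%). A call needed an FDR under 0.05 over all genes together with a log2 fold change of 1.5 or more in either direction. THBS2, with 0 to 2 counts per library, was left out by the filter on low counts. POSTN passed it through SKOV3, SPP1 through HCC1954 and SKOV3, and RELN through HCC1954 and OVCAR8, the lines where each is higher. The differences of these genes, and the counts and medians that include them, therefore follow in part from the filter. The median absolute log2 difference of the 9 genes lay between 1.68 and 4.10 in the 6 comparisons, against 0.75 to 0.94 over all genes. The 3 libraries of a line carry different constructs, so the spread in this test includes the difference between conditions that the model did not take up.

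The thrombospondins are secreted trimers or pentamers, of which THBS1 binds CD47 and CD36 and can activate latent TGF-beta. THBS1 averaged 63.0 ± 20.9 CPM in MDA-MB-231, 214.8 ± 25.9 in OVCAR8, 1278 ± 973 in SKOV3 and 1528 ± 1214 in HCC1954. SKOV3 and HCC1954 did not differ beyond their spread (log2 difference -0.25, SE 0.41, FDR 0.603), and each of the 5 other pairs of lines was called. THBS3, a pentameric family member known from cartilage and bone, was lowest in MDA-MB-231, at 7.34 ± 2.73 CPM. It lay between 17.9 ± 3.71 and 25.4 ± 3.77 CPM in the other 3 lines, and the one pair called was OVCAR8 vs MDA-MB-231 (log2 difference 1.80, SE 0.20, FDR 9.04e-06). THBS2, an antagonist of angiogenesis, was near the limit of detection throughout, with 6 libraries at 0 counts, 4 at 1 count and 2 at 2 counts. The antisense gene THBS2-AS1, which overlaps it on the other strand, held 8 to 155 counts.

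Osteopontin and periostin marked SKOV3. SPP1, which binds CD44 and integrins through an RGD sequence, averaged 99.0 ± 31.1 CPM in SKOV3 and 18.7 ± 13.7 CPM in HCC1954. It held 2 to 10 counts per library in MDA-MB-231 and OVCAR8, between which no difference passed the threshold (FDR 0.321). POSTN, an integrin ligand that helps assemble collagen, averaged 277.4 ± 139.9 CPM in SKOV3, where its lowest library held 117 CPM. It had 7 to 43 counts per library in HCC1954, 0 to 5 in OVCAR8 and 0 in all 3 MDA-MB-231 libraries. Against the limit that 0 counts allow per MDA-MB-231 library, its lowest SKOV3 library was at least 1546-fold higher.

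Tenascin-C and SPARC divided the lines by tissue in opposite directions. TNC, a hexameric glycoprotein that weakens adhesion to fibronectin, averaged 318.2 ± 124.2 CPM in MDA-MB-231 and 485.7 ± 219.7 CPM in HCC1954, against 11.7 ± 0.90 CPM in OVCAR8 and 10.4 ± 5.71 CPM in SKOV3. The log2 difference of TNC was between -5.64 and -4.73 in the 4 comparisons of an ovarian with a breast line (FDR 1.51e-06 or lower). SPARC, a collagen-binding protein that counters cell spreading, was high in the ovarian lines, at 421.5 ± 45.0 CPM in OVCAR8 and 111 ± 34.9 CPM in SKOV3. It averaged 5.40 ± 1.08 CPM in MDA-MB-231 and 1.76 ± 1.07 CPM in HCC1954, and all 6 pairs of lines were called for it. TGFBI, given below, was also higher in both breast lines than in both ovarian lines. How many of all genes divide the lines in this way was not counted. With 2 lines per tissue, the tissue of origin and the individual line cannot be told apart.

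Fibronectin and TGFBI were abundant in every library. FN1 averaged 227.3 ± 34.9 CPM in MDA-MB-231 and 237.1 ± 99.7 CPM in HCC1954. In OVCAR8 it averaged 203.1 ± 120.7 CPM, and in SKOV3 213.8 ± 26.7 CPM. No pair of lines was called for it, with FDR values of 0.420 to 0.974. TGFBI, a TGF-beta-induced protein that binds integrins and collagen, ran from 771.7 ± 27.6 CPM in MDA-MB-231 through 434.4 ± 150.6 CPM in HCC1954 to 152.3 ± 63.3 in OVCAR8 and 147.2 ± 9.45 in SKOV3. OVCAR8 and SKOV3 did not differ beyond their spread for TGFBI (FDR 0.947), and HCC1954 and MDA-MB-231 differed by -0.83 (SE 0.28, FDR 0.0184), short of the fold that a call required.

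RELN was a low transcript in all lines. It averaged 2.87 ± 3.38 CPM in HCC1954 and 2.10 ± 0.51 CPM in OVCAR8, with no difference past the threshold between them (FDR 0.785). It held 2 to 5 counts per library in MDA-MB-231 and 0 to 5 in SKOV3, again with no difference past the threshold (FDR 0.404).

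To set the genes against each other, the mean CPM of each line was divided by the length of the canonical transcript. On this scale TGFBI had the highest level of the 10 genes in MDA-MB-231 (285 CPM per kb), THBS1 in HCC1954 and SKOV3 (196 and 164 CPM per kb) and SPARC in OVCAR8 (122 CPM per kb). POSTN was second in SKOV3 at 84.1 CPM per kb. FN1 was at 24.2 to 28.3 CPM per kb in the 4 lines, and RELN at most 0.245 CPM per kb.

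**Figure D3:**
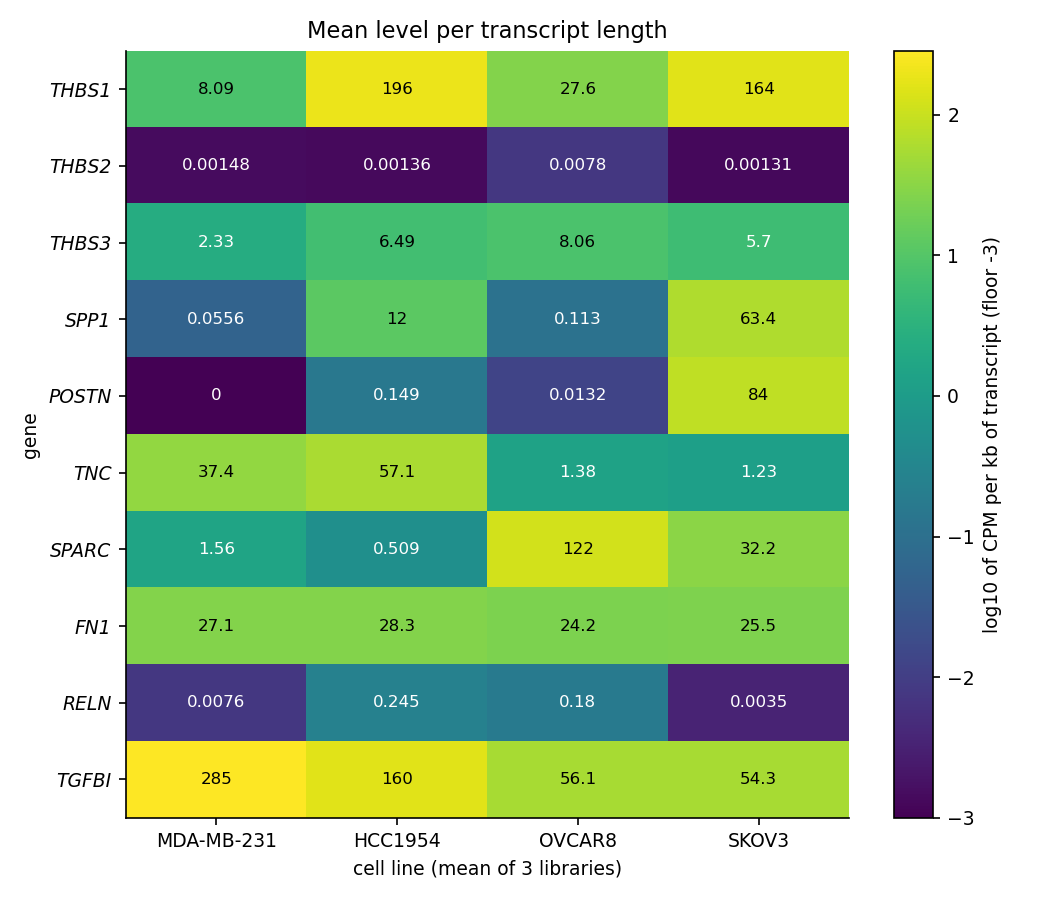
Mean level of each gene per kilobase of its canonical transcript (rows) in each cell line (columns, mean of 3 libraries), coloured by the log10 value with a floor at -3, with the value in CPM per kb printed in each cell. The highest cell differs by line: TGFBI in MDA-MB-231 (285), THBS1 in HCC1954 (196) and SKOV3 (164), and SPARC in OVCAR8 (122).

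The 3 contrasts of condition asked whether SIVA-WT or SIVA-D160N moved these genes, with the line as a block in the model. None of the 9 testable genes was called in any of them by the edgeR quasi-likelihood test, and of all 17211 genes 0%, 0.00581% and 0% were called in SIVA-WT vs control, SIVA-D160N vs control and SIVA-D160N vs SIVA-WT. At an unadjusted p under 0.05, which is not a call, 2 of the 9 genes were counted in SIVA-WT vs control (POSTN and FN1, both higher), against 1.47% of all genes higher and 1.07% lower. In SIVA-D160N vs control 5 were counted, of which THBS1, POSTN and RELN were higher and THBS3 and SPP1 lower, against 6.52% of all genes higher and 7.68% lower. In SIVA-D160N vs SIVA-WT 5 were counted, RELN higher and THBS3, SPP1, SPARC and FN1 lower, against 2.58% and 4.30%. DESeq2 counted 1, 4 and 5 genes at that level in the 3 contrasts and called 0, 0 and 1, the last being SPP1 in SIVA-D160N vs SIVA-WT (log2 difference -1.54, DESeq2 FDR 0.0494). DESeq2 gave RELN no FDR in SIVA-D160N vs control (log2 difference 2.24, DESeq2 p 0.000707), so RELN could not be called there. limma-voom counted 2, 4 and 2 and called none. The 9 genes had a median absolute log2 difference of 0.49, 0.65 and 0.63 in the 3 contrasts, against 0.10, 0.16 and 0.13 over all genes. THBS1, THBS3, SPP1 and RELN stand in lists of pathway genes that the study drew from SIVA-D160N vs EV in these same libraries, so their counts here are not independent evidence of a direction. The contrasts share libraries, and agreement between them is not read as a result.

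**Figure D4:**
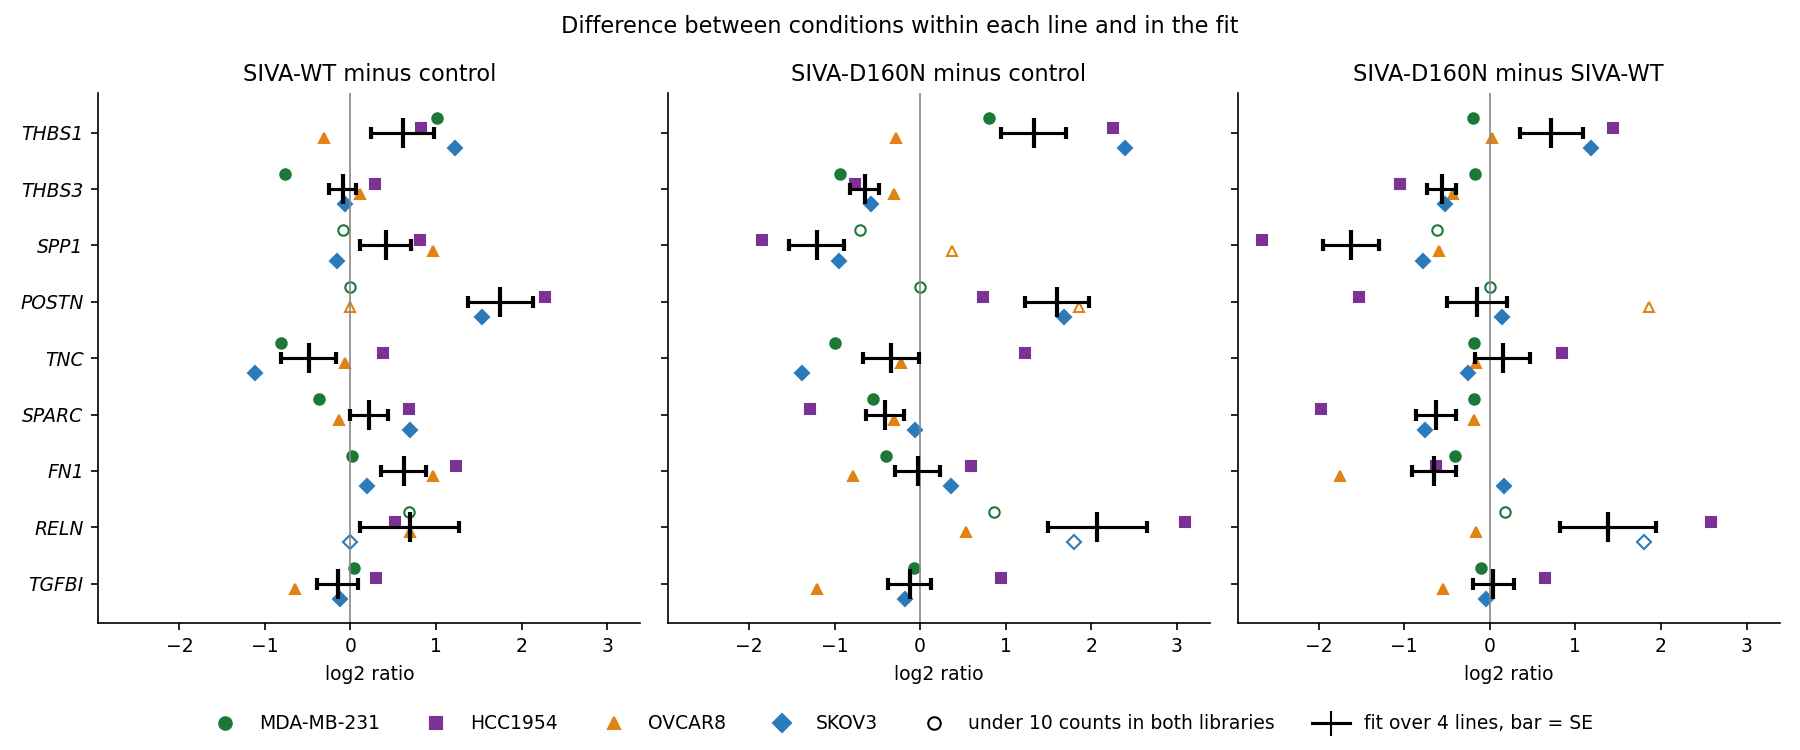
Log2 ratio (x axis) of the 9 testable genes (y axis) in the 3 contrasts, with 1 coloured symbol per cell line and a black bar for the fit over 4 lines with its SE. Open symbols mark ratios in which both libraries held fewer than 10 counts. In SIVA-D160N minus control, THBS1 is at 2.25 in HCC1954 and 2.39 in SKOV3 but at -0.28 in OVCAR8, and THBS3 is below 0 in all 4 lines.

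Within single lines, genes at least 2-fold apart were counted among those with 10 or more counts in either library. In SIVA-WT vs control these were 1 of 6 genes in MDA-MB-231 (THBS1, 3.72% of all genes), 2 of 9 in HCC1954 (POSTN and FN1, 3.97%), 0 of 8 in OVCAR8 (2.28%) and 3 of 8 in SKOV3 (THBS1, POSTN and TNC, 5.02%). In SIVA-D160N vs control they were 0 of 6 in MDA-MB-231 (6.36%), 5 of 9 in HCC1954 (THBS1, SPP1, TNC, SPARC and RELN, 9.71%), 1 of 7 in OVCAR8 (TGFBI, 2.65%) and 3 of 8 in SKOV3 (THBS1, POSTN and TNC, 8.06%). In SIVA-D160N vs SIVA-WT they were 0 of 6 in MDA-MB-231 (2.78%), 6 of 9 in HCC1954 (THBS1, THBS3, SPP1, POSTN, SPARC and RELN, 8.42%), 1 of 8 in OVCAR8 (FN1, 1.71%) and 1 of 8 in SKOV3 (THBS1, 2.34%). These ratios compare 1 library with 1 library and have no replicate check. The wider ratios were thus mostly in HCC1954 and SKOV3.

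THBS1 had its widest ratios of SIVA-D160N to control in HCC1954 and SKOV3. In control, SIVA-WT and SIVA-D160N it measured 608.5, 1071 and 2904 CPM in HCC1954, and 447, 1039 and 2349 CPM in SKOV3. In both lines the order was control, then SIVA-WT, then SIVA-D160N. In MDA-MB-231 it measured 39.7, 79.8 and 69.5 CPM, and in OVCAR8 244.6, 197.9 and 201.9 CPM, so that the control was the lowest library in one line and the highest in the other. SIVA-D160N was 4.77-fold above control in HCC1954, 5.26-fold in SKOV3 and 1.75-fold in MDA-MB-231, and at 0.826 of control in OVCAR8. In the fit the log2 difference of SIVA-D160N vs control was 1.33 (SE 0.38, edgeR p 0.00543, FDR 0.206), and 1.89 (FDR 0.0691) without OVCAR8, 0.96 (FDR 0.494) without HCC1954 and 0.95 (FDR 0.364) without SKOV3. SIVA-WT vs control differed by 0.61 (SE 0.37, FDR 1), and by 1.02 without OVCAR8 (FDR 1). SIVA-D160N vs SIVA-WT differed by 0.72 (SE 0.37, FDR 0.748), and by 0.42 (FDR 1) without HCC1954. THBS1 took 0.0587% of all counts in the HCC1954 control and 0.279% in its SIVA-D160N library, and 0.0472% and 0.235% in those of SKOV3, values of single libraries without a test.

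**Figure D5:**
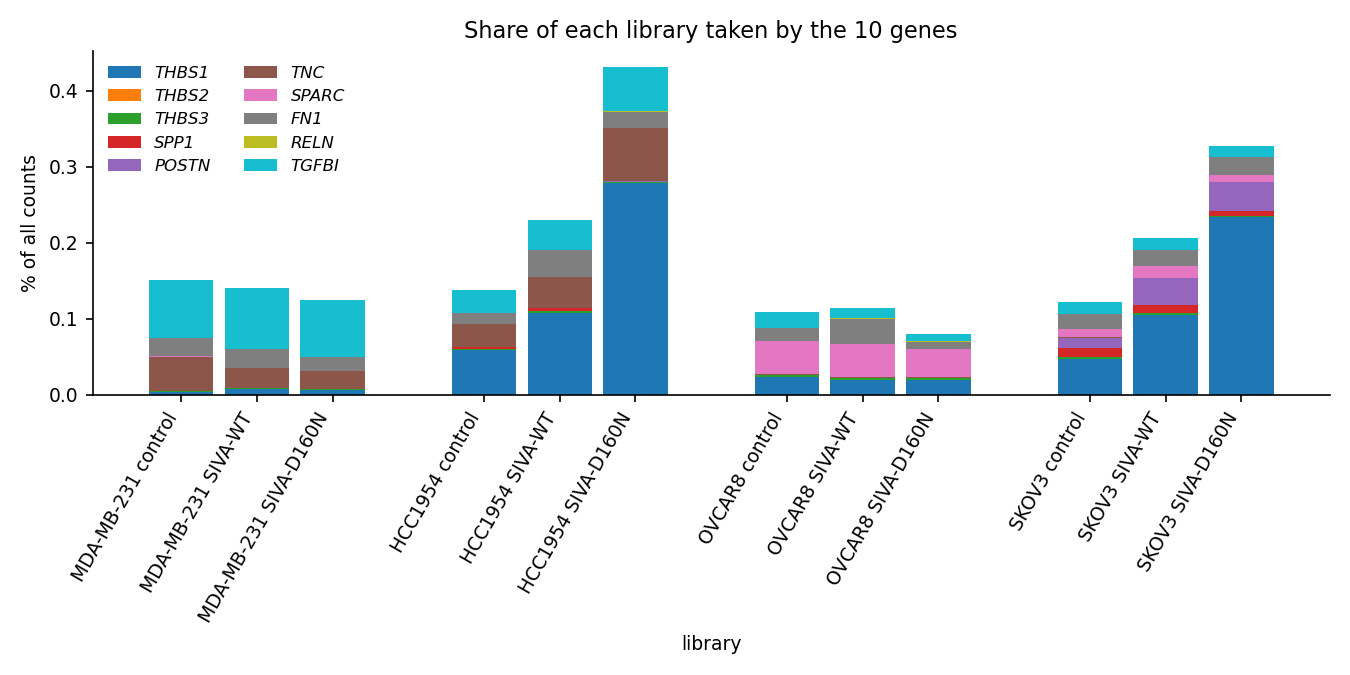
Share of all counts (y axis, %) taken by the 10 genes in each of the 12 libraries (x axis), stacked by gene. The 10 genes together took 0.431% of the counts in HCC1954 SIVA-D160N and 0.327% in SKOV3 SIVA-D160N, most of it THBS1, and 0.0799% in OVCAR8 SIVA-D160N.

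THBS3 was below control with SIVA-D160N in every line. SIVA-D160N was the lowest of the 3 libraries in 4 of 4 lines, with values in control, SIVA-WT and SIVA-D160N of 10.5, 6.12 and 5.44 CPM in MDA-MB-231 and 21.8, 26.6 and 12.8 CPM in HCC1954. In OVCAR8 the values were 26.4, 28.5 and 21.2 CPM, and in SKOV3 20.5, 19.6 and 13.7 CPM. The log2 difference of SIVA-D160N vs control was -0.65 (SE 0.17, edgeR p 0.00236, FDR 0.166), and lay between -0.77 and -0.55 when each line was left out. DESeq2 gave -0.66 with an FDR of 0.0227, under the FDR threshold but short of the fold threshold. SIVA-D160N vs SIVA-WT was -0.56 (SE 0.17, FDR 0.719), and SIVA-WT vs control did not differ beyond the spread (-0.09, SE 0.16, FDR 1, and -0.23, FDR 1, without HCC1954). Across conditions the 4 control libraries (10.5 to 26.4 CPM) and the 4 SIVA-D160N libraries (5.44 to 21.2 CPM) overlapped, so the difference was visible within lines. THBS3 overlaps MTX1 and THBS3-AS1 on the other strand in the annotation. Since the strand setting of the counting is not given in the sources used here, reads of these genes could be shared. MTX1 held 632 to 1388 counts per library.

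Osteopontin was lowest with SIVA-D160N in both lines that express it. In control, SIVA-WT and SIVA-D160N, SPP1 measured 18.5, 32.5 and 5.08 CPM in HCC1954 and 123, 110 and 63.9 CPM in SKOV3. In OVCAR8 it held 4, 10 and 6 counts and in MDA-MB-231 5, 4 and 2. In SIVA-D160N vs SIVA-WT the log2 difference was -1.62 (SE 0.33, edgeR p 0.000448, FDR 0.719), the ninth lowest p of all genes tested, and it was -0.81 (FDR 1) without HCC1954 and -2.26 (FDR 0.320) without SKOV3. In SIVA-D160N vs control it was -1.21 (SE 0.32, FDR 0.176) and without HCC1954 -0.85 (FDR 0.354). SIVA-WT vs control was 0.41 (SE 0.30, FDR 1), and -0.04 (FDR 1) without HCC1954. The ovarian minus breast difference of SIVA-D160N vs SIVA-WT was 1.78 for SPP1 (SE 0.39, edgeR p 0.00143, FDR 1). The log2 ratio was -2.66 in HCC1954 and -0.62 in MDA-MB-231 (from 2 and 4 counts), against -0.60 in OVCAR8 and -0.78 in SKOV3. Without HCC1954, which leaves MDA-MB-231 as the only breast line, the ovarian minus breast difference was 0.21.

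Periostin was higher with both constructs in SKOV3, where it measured 117 CPM in the control, 340.1 CPM with SIVA-WT and 375 CPM with SIVA-D160N. SIVA-WT and SIVA-D160N were 2.90-fold and 3.20-fold above the control. In HCC1954 it held 7, 43 and 11 counts, in OVCAR8 0, 0 and 5, and in MDA-MB-231 0 in each library, so that the fitted differences of 1.75 (SE 0.38, edgeR p 0.00124, FDR 1) for SIVA-WT vs control and 1.60 (SE 0.37, p 0.00202, FDR 0.159) for SIVA-D160N vs control rested on SKOV3 and HCC1954. Without HCC1954 they were 1.5 (FDR 1) and 1.74 (FDR 0.297), and without SKOV3 POSTN did not pass the filter. SIVA-D160N vs SIVA-WT was -0.15 (SE 0.35, FDR 0.955), with the sign turned without HCC1954 (0.24) and by DESeq2 (0.37). On the list of 10 fibroblast markers, the summed level moved with POSTN in SKOV3: 55.7 CPM in the control, 465 CPM with SIVA-WT and 556.7 CPM with SIVA-D160N, and 407 and 503.7 CPM of the last 2 sums were COL1A1, a gene named, like the markers below, after its values were seen. The range of the sum over the 4 lines was 4.73 to 351.9 CPM in controls, 5.89 to 465 CPM with SIVA-WT and 5.15 to 556.7 CPM with SIVA-D160N. In control, SIVA-WT and SIVA-D160N of SKOV3, COL1A2 measured 11.97, 29.4 and 23.6 CPM, COL3A1 0.636, 10.2 and 4.21 CPM, PDGFRB 0.0795, 1.37 and 1.60 CPM and MFAP5 17.8, 15.7 and 22.4 CPM. The other 5 markers, DCN, LUM, PDGFRA, FAP and THY1, were at most 0.742 CPM each, and 0 or 1 of the 10 markers were at 0 counts. In the other lines 3 to 6 of the 10 were at 0. The part of other cells in the POSTN difference was not tested, and in bulk RNA more cells of a type and more RNA per cell cannot be told apart.

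Reelin was highest with SIVA-D160N in HCC1954, as THBS1 was. RELN held 31, 47 and 237 counts in control, SIVA-WT and SIVA-D160N of HCC1954, or 0.744, 1.09 and 6.77 CPM, a 9.10-fold ratio of SIVA-D160N to control. In OVCAR8 it held 56, 96 and 86 counts, in MDA-MB-231 2, 4 and 5, and in SKOV3 0, 0 and 5. SIVA-D160N was above control in 4 of 4 lines, but 2 of them rested on 5 counts or fewer. The log2 difference of SIVA-D160N vs control was 2.07 (SE 0.58, edgeR p 0.00452, FDR 0.196) and 0.97 (FDR 0.616) without HCC1954. Without OVCAR8 it was 2.95 (FDR 0.0991). In SIVA-D160N vs SIVA-WT it was 1.38 (SE 0.56, FDR 0.719), and 0.25 (FDR 1) without HCC1954.

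Fibronectin was above control with SIVA-WT in 4 of 4 lines and with SIVA-D160N in 2 of 4. In control, SIVA-WT and SIVA-D160N it measured 146, 343.6 and 221.7 CPM in HCC1954, and 173, 336 and 100.1 CPM in OVCAR8. In MDA-MB-231 it measured 246, 248.8 and 187 CPM, and in SKOV3 187, 213.8 and 240.5 CPM. SIVA-WT was 1.01-fold to 2.35-fold above control, and the fitted log2 difference was 0.62 (SE 0.26, edgeR p 0.0379, FDR 1), or 0.43 (FDR 1) without HCC1954. SIVA-D160N vs SIVA-WT was -0.65 (SE 0.26, FDR 0.720), and -0.31 (FDR 0.830) without OVCAR8, whose ratio was -1.75 on the log2 scale. SIVA-D160N vs control was -0.03 (SE 0.26, FDR 0.977), and its sign turned when MDA-MB-231 or OVCAR8 was left out (0.11 and 0.17), while without HCC1954 it was -0.22 (FDR 0.846). The control libraries (146 to 246 CPM) and SIVA-WT libraries (213.8 to 343.6 CPM) overlapped.

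SPARC was lowest with SIVA-D160N in 4 of 4 lines, by small ratios except in HCC1954. Its values in control, SIVA-WT and SIVA-D160N were 464, 425 and 374.7 CPM in OVCAR8 and 93.0, 151.6 and 89.3 CPM in SKOV3. In MDA-MB-231 they were 6.59, 5.11 and 4.49 CPM, and in HCC1954 1.75, 2.83 and 0.685 CPM, from 73, 122 and 24 counts. The log2 difference was -0.63 (SE 0.23, edgeR p 0.0168, FDR 0.719) in SIVA-D160N vs SIVA-WT and -0.41 (SE 0.22, FDR 0.435) in SIVA-D160N vs control. Without HCC1954 the former was -0.41 (FDR 1). SIVA-WT vs control was 0.22 (FDR 1), and 0.11 (FDR 1) without HCC1954.

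TNC and TGFBI differed in opposite directions in different lines. TNC measured 460.5, 262 and 232 CPM in control, SIVA-WT and SIVA-D160N of MDA-MB-231 and 17.0, 7.80 and 6.50 CPM in SKOV3. In HCC1954 the order was the reverse, at 314.7, 409 and 733.5 CPM, and OVCAR8 stayed between 10.7 and 12.5 CPM. The SIVA-WT library lay between the other two in 4 of 4 lines. The fitted difference of SIVA-D160N vs control was -0.34 (SE 0.33, FDR 0.674), -0.88 (edgeR p 0.00105, FDR 0.344) without HCC1954 and 0.01 (FDR 0.994) without SKOV3. TGFBI measured 313.3, 386.8 and 603.1 CPM in HCC1954 but 220.7, 140.3 and 95.8 CPM in OVCAR8, and its libraries lay between 741.9 and 796.3 CPM in MDA-MB-231 and between 139.3 and 157.6 CPM in SKOV3. Its fitted difference was -0.12 (SE 0.25, FDR 0.868), 0.24 (FDR 0.603) without OVCAR8 and -0.48 (edgeR p 0.0309, FDR 0.474) without HCC1954. SIVA-WT vs control was -0.15 (SE 0.24, FDR 1) and -0.27 (FDR 1) without HCC1954. SIVA-D160N vs SIVA-WT was 0.04 (SE 0.24, FDR 0.991) for TGFBI and 0.15 (SE 0.32, FDR 0.948) for TNC, and without HCC1954 it was -0.21 (FDR 1) and -0.19 (FDR 1).

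The difference between the ovarian and the breast lines was tested as an interaction. By edgeR, 0 of the 9 genes had an FDR under 0.05 in each of the 3 contrasts, and of all genes 0%, 0.00581% and 0% did, in the order of contrasts above. limma-voom also gave 0 of the 9. At an unadjusted p under 0.05 the interaction counted 2 of the 9 genes in SIVA-D160N vs control, SPP1 (1.04, SE 0.39) and TGFBI (-1.14, SE 0.39), against 5.06% of all genes. It counted 2 in SIVA-D160N vs SIVA-WT, SPP1 and POSTN (1.91, SE 0.72, for POSTN), against 2.24%, and 0 in SIVA-WT vs control, against 1.78%. Leaving out HCC1954 leaves MDA-MB-231 as the only breast line. The interaction in SIVA-D160N vs control was then -0.64 for TGFBI and 0.30 for SPP1, which held 2 to 5 counts in MDA-MB-231. POSTN held 0 counts in every MDA-MB-231 library, so its interaction could not be estimated without HCC1954. In SIVA-D160N vs control the log2 ratios of TNC were -0.99 in MDA-MB-231 and 1.22 in HCC1954, the 2 breast lines, and those of THBS1 were -0.28 in OVCAR8 and 2.39 in SKOV3, the 2 ovarian lines, so that lines of 1 tissue lay on both sides of 0.

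Likeness over libraries was measured as Pearson's r of log2 CPM after the mean of each line was subtracted, over 12 libraries that share 4 lines, and is given as a description. Among the 9 genes themselves, THBS1 went with RELN (r = 0.87), and SPP1, THBS3 and SPARC went together (r = 0.82 to 0.85), while THBS1 ran against THBS3 (r = -0.75) and SPP1 (r = -0.70). Over the 9 libraries without HCC1954, an alternative chosen after seeing the data, these were 0.78 for THBS1 and RELN, 0.67 for THBS3 and SPP1, 0.68 for THBS3 and SPARC, 0.37 for SPP1 and SPARC, -0.71 for THBS1 and THBS3 and -0.68 for THBS1 and SPP1. The r of THBS1 with TNC was -0.19 over all libraries and -0.90 without HCC1954. RELN held 0 to 5 counts per library in MDA-MB-231 and SKOV3. SPP1 held 2 to 10 in MDA-MB-231 and OVCAR8, and POSTN 0 to 5 in those lines. Each r of these genes, with and without HCC1954, therefore rests in part on libraries with very few counts. Of all genes tested, the highest r with THBS1 was for ACTN4 (0.984) and SH2D4A (0.974), with THBS3 for DFNB31 (0.988) and ALDH3B1 (0.980), and with SPP1 for TP53INP1 (0.979) and BTN3A3 (0.962). For POSTN they were GOPC (0.949) and ZNF615 (0.928), for RELN NSMAF (0.944) and TXLNG (0.942), and for FN1 TBX1 (0.965) and WFIKKN1 (0.929). For TNC they were PAPPA2 (0.972) and PLK3 (0.964), for SPARC MST1P2 (0.977) and ALDH2 (0.975), and for TGFBI MROH6 (0.955) and RP5-1198O20.4 (0.939). These are the highest values among all genes tested. How high the best r is for other genes in the same search was not measured.

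The partners of these proteins were counted from fixed lists in SIVA-D160N vs control, again with 0 genes called by edgeR in every list. Of 52 other matricellular and matrix glycoproteins, 41 were tested, and 3 were higher and 7 lower at an unadjusted p under 0.05 (over all genes, 6.52% were higher and 7.68% lower, shares that hold for each list here; median log2 difference -0.02, against -0.01 over all genes). The latent TGF-beta binding proteins LTBP1 (log2 difference -0.75, SE 0.14, edgeR FDR 0.128) and LTBP4 (-0.44, SE 0.12, FDR 0.193) and the galectin LGALS3 (-0.35, SE 0.10, FDR 0.197) were below control in 4 of 4 lines. The 3 higher genes, MATN3, HSPG2 and EDIL3, and the further genes of these lists named without 1 direction in all 4 lines were named after their values were seen. Of 26 receptors of these ligands, 19 were tested, with a median of 0.14. The integrin chains ITGAV and ITGA4 were the 2 higher ones, and the reelin receptor VLDLR was the 1 lower one (-0.58, SE 0.21, FDR 0.262, below control in 3 of 4 lines). Of 14 TGF-beta ligands, receptors and SMADs, all were tested, with a median of 0.02 and TGFB2, a TGF-beta ligand, as the 1 higher gene (0.92, SE 0.41, FDR 0.342, above control in 3 of 4 lines). Of 21 proteases and modifiers that act on the matrix, 18 were tested, with a median of -0.06. The 5 higher genes were TLL1, ADAMTS5, LOX, LOXL2 and TGM2, and the 2 lower ones were THBD and MMP14. MMP14, a membrane-bound metalloprotease that cleaves fibronectin, was below control in 4 of 4 lines (-0.82, SE 0.21, FDR 0.166).

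The marker lists were counted in the same way in SIVA-D160N vs control, against the same shares of all genes (6.52% higher and 7.68% lower). Of the 10 fibroblast markers 4 were tested, with COL3A1 as the 1 higher gene and 0 lower (median 0.43). Of 10 endothelial and leukocyte markers 4 were tested, with 0 higher and 2 lower (median -0.76). The 2 were PECAM1 (-1.19, SE 0.40, edgeR FDR 0.241) and VWF (-0.95, SE 0.28, FDR 0.209), below control in 4 of 4 lines, of which SKOV3 held at most 0.106 CPM of either gene. The summed level of that list was 3.65 to 93.2 CPM in controls, 1.52 to 80.7 CPM with SIVA-WT and 1.80 to 48.5 CPM with SIVA-D160N. Its highest values were in HCC1954, where PECAM1 gave 32.6 to 62.8 CPM and CDH5, another endothelial marker, 12.5 to 25.4 CPM. The leukocyte markers PTPRC, CD3E, CD14, CD68 and MS4A1 were at most 0.627 CPM in every library. Of the 16 markers of epithelium, tissue and line, all were tested, with 2 higher (CDH2 and MUC16) and 3 lower (KRT19, ERBB2 and GRB7, median 0.06). CDH2, the cadherin of mesenchymal cells, was above control in 4 of 4 lines (0.41, SE 0.16, FDR 0.300). In control and SIVA-D160N it measured only 0.133 and 0.194 CPM in MDA-MB-231 and 0.0720 and 0.371 CPM in HCC1954. The other mesenchymal-like markers, VIM and ZEB1, were above control in 1 and 2 of 4 lines. KRT19 (-0.77, SE 0.17, FDR 0.148) and GRB7 (-0.68, SE 0.23, FDR 0.237) were below control in 4 of 4 lines. In OVCAR8, however, KRT19 measured 0.0274 CPM in the control and 0 with SIVA-D160N, and in MDA-MB-231 GRB7 measured 3.92 and 3.89 CPM. The other epithelial markers did not fall with KRT19: KRT8 was above control in 3 of 4 lines, and EPCAM, CDH1 and KRT18 in 2 of 4. The part of these markers in the values of the 10 genes was not tested.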

How the data were processed

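RNA was measured by sequencing in 12 libraries, 1 per line and condition, as stranded mRNA (TruSeq). Per the submitters' processing notes, the tools were FastQC, STAR 2.5.3a and edgeR, with GRCh38. The authors deposited gene counts for 57187 genes without normalization, and these counts are the only values used. The annotation release and strand setting of the counting are not given in the sources used here. The deposited CPM table was not used. All columns were matched to libraries by name (0 left over), and none of the 66 pairs of libraries were identical.

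The count model was edgeR 4.0.16 in R 4.3.3 (quasi-likelihood, TMM, Benjamini-Hochberg FDR over all genes). Contrasts of condition and the ovarian minus breast interaction used line as the block and filterByExpr by condition (17211 genes). Comparisons of lines had a term for condition and filterByExpr by line (19204 genes). The same line is a shared source: libraries of one line deviated together from their condition's mean, with r of 0.933 to 0.977, against -0.446 to -0.163 between lines. Subtracting the mean over the lines itself pushes r between lines below 0, so the negative values are set in part by that step. Ratios within a line used a prior count of 2. DESeq2 1.42.0 and limma 3.58.1 (voom) were alternatives, beside median-ratio size factors, other filters, no block and leaving out each line. Transcript lengths and overlaps came from GENCODE models lifted to GRCh37. Overlaps were found from the GRCh37 positions of these models, whereas the counts were made with GRCh38. Figures used matplotlib 3.10.9 in Python 3.11.15.

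At this depth 0 counts allow up to 0.0664 to 0.0856 CPM, for counting error only. The 10 genes, the lists and the tests were chosen with earlier results of these data known. Named genes were the 10 genes, per list up to 3 higher and 3 lower with the smallest p under 0.05 and 1 direction in all 4 lines, and the 2 most alike per gene.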

Additional observations from a re-analysis of the deposited data

Results flagged for a closer look

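Over the 4 lines, each tested gene was screened for a line far from the other 3, in its log2 CPM per condition and in its log2 ratio per contrast, 54 sets in all. Chance alone flags about 1 in 20 sets, or 2.7 here, and 2 were found, both in SIVA-D160N vs SIVA-WT and both in HCC1954. SPP1 had a log2 ratio of -2.66 in HCC1954, with the other 3 lines between -0.78 and -0.60. TNC had a log2 ratio of 0.84 in HCC1954, with the other 3 lines between -0.26 and -0.16. The HCC1954 control, which had 0 SIVA1 counts, is not part of this contrast. For none of the 9 tested genes did a difference between conditions vary between ovarian and breast lines at an edgeR interaction FDR under 0.05.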

How the results depend on the processing

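With no filter on low counts, 1 gene of the 10 was called in SIVA-WT vs control (POSTN), 2 in SIVA-D160N vs control (POSTN and RELN) and 1 in SIVA-D160N vs SIVA-WT (SPP1), and 1 (TGFBI) had an FDR under 0.05 in the interaction of SIVA-D160N vs control, an alternative chosen after seeing the data. DESeq2 called 1 in SIVA-D160N vs SIVA-WT. At an unadjusted p under 0.05 the counts were 2, 5 and 5. Over all genes, the calls in SIVA-WT vs control went from 0 to 1 with DESeq2, 1 with limma-voom, 10 with no filter and 437 at the unadjusted p. In SIVA-D160N vs control they went from 1 to 12, 5, 172 and 2445, to 0 with no replicate block, and to between 0 and 2 with 1 line left out (0 without MDA-MB-231 or SKOV3, 2 without HCC1954 or OVCAR8). In SIVA-D160N vs SIVA-WT they went from 0 to 4 with DESeq2, 59 with no filter and 1184 at the unadjusted p. With no replicate block, the sign turned for THBS3 in SIVA-WT vs control (0.03), TNC (0.29) and TGFBI (0.11) in SIVA-D160N vs control and POSTN in SIVA-D160N vs SIVA-WT (0.14). The last also turned with DESeq2 (0.37) and limma-voom (0.09), and TGFBI in that contrast with limma-voom (-0.01).

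With 1 line left out, the sign turned in SIVA-WT vs control for THBS3 (from -0.23 to 0.12), SPP1 (-0.04 to 0.74) and TGFBI (-0.27 to 0.06). It turned in SIVA-D160N vs control for TNC (-0.88 to 0.01), FN1 (-0.22 to 0.17) and TGFBI (-0.48 to 0.24), and in SIVA-D160N vs SIVA-WT for POSTN (-0.27 to 0.24), TNC (-0.19 to 0.25) and TGFBI (-0.21 to 0.18). POSTN was not tested without SKOV3. The 2-fold count of SIVA-WT vs control within OVCAR8 went from 0 to 1 with a prior count of 0.5 and to 2 with CPM by total counts. Of the fitted differences of single genes under all alternatives, 240 kept their sign and their side of the FDR threshold, 17 changed sign and 10 passed the threshold only in the alternative. RELN in SIVA-D160N vs control had no FDR with DESeq2 and is counted among the 240. Counts of genes called between lines stayed within 1.5 times the reported ones. The causes were not tested. With 1 library per line and condition, the spread within a line was not measured.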
